A study of Mus musculus with 6 samples.

Results

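The genes described here encode the peroxisome proliferator-activated receptors (Ppara, Ppard and Pparg), the retinoid X receptors (Rxra, Rxrb and Rxrg) and 4 genes that these receptors are known to induce in muscle during fasting and exercise (Pdk4, Angptl4, Ucp2 and Ucp3). Their peaks were taken by gene name from the lists of regions enriched for acetylated lysine 27 of histone H3 (H3K27ac), a mark of active promoters and enhancers, in mouse quadriceps. Of 46988 peaks in control muscle, 51 were assigned to these 10 genes, and of 40721 peaks in detrained muscle, 41. The control group held sedentary male mice of strain C57BL/6. Detrained mice were of the same strain, ran voluntarily on wheels for 4 weeks and were then kept without wheels for 72 h before the muscle was taken. No genetic change is named in the labels of any group, and each library came from 1 quadriceps of 1 animal, with 2 H3K27ac libraries and 1 input library per group. Runners are called detrained throughout because none of the 6 samples analysed here was taken during or just after running, so training and rest from it cannot be told apart.

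PPARs are nuclear receptors that bind fatty acids and their derivatives. Each acts as a heterodimer with an RXR on a response element built from copies of the half-site AGGTCA. In muscle, PPARα and PPARδ are known for switching on genes of fatty acid import and oxidation when glucose is spared, whereas PPARγ is best known from adipocytes, macrophages and endothelial cells. Among their targets, PDK4 phosphorylates pyruvate dehydrogenase and so keeps pyruvate from being oxidised, ANGPTL4 is a secreted inhibitor of lipoprotein lipase, and UCP2 and UCP3 are carriers of the inner mitochondrial membrane.

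The H3K27ac libraries held between 20805019 and 22400894 tags, the control input 10812470 and the detrained input 21298438. All 10 genes had a peak over their first annotated start site in both groups. The labelled tissue was checked against marker genes. In the muscle fibre list, 9 of 10 genes had peaks in both groups (Tnnt3 had none assigned to it). The control promoter peaks of these genes had a median density at percentile 94.5 of all control peaks. A promoter peak here is the annotated promoter peak nearest to a start site or, where a gene had none, its peak nearest to a start site. In this list only Mylpf and Casq1 had an annotated one in control, and the Myh4 peak lay 7719 bp from the start site. Of the 8 adipocyte markers, only Lep and Fabp4, which is also in the fatty acid list below, had a peak in either group, and none was assigned to Adipoq, Plin1, Cidec, Retn, Cfd or Adrb3. Because whole muscle was used, fewer cells of a type and less acetylation per cell cannot be told apart.

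Values are estimated tags scaled to a library of 10000000 tags, given per kb of called peak, or per region or gene where stated. Control and detrained peaks were called and normalized separately. With 2 libraries per group, an exact two-sided permutation test cannot give a p below 0.333. Differences between groups are therefore given as descriptions, with no test, beside the spread of the libraries (SD, n = 2). The groups are said not to overlap where the lower library of one group exceeded the higher library of the other.

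The sequences that carry the receptor element are shown first, because the proteins encoded by 6 of the members bind it. Both strands were searched for AGGTCANAGGTCA, a direct repeat of the half-site with 1 base between them. Only 1 exact copy lay in a member's peaks. It was in intergenic sequence beyond the end of Rxra, inside a peak of both groups whose control centre was 63.5 kb from the nearest start site. Allowing 1 of the 12 half-site letters to differ added copies in Ppard intron sequence (peaks of both groups) and in Pparg intron sequence (a detrained peak only), among others. In these stretches of RefSeq sequence, build GRCm38.p6 (mm10), written 5′ to 3′ on the strand that reads AGGTCA, the capitals mark the repeat.
Rxra downstream, chr2:27772963-27773023, minus strand: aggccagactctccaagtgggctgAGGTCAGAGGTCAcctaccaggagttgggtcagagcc
Ppard intron, chr17:28248594-28248654, plus strand: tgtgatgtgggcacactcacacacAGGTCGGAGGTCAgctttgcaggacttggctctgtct
Pparg intron, chr6:115463527-115463587, plus strand: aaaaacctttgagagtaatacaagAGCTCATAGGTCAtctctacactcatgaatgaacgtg

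An exact repeat was present in 0.551% of all control peaks and in 0.638% of all detrained peaks. Among control peaks with a length within 10% of the Rxra peak, 1.23% held one, and among such detrained peaks 1.32%. With 1 letter allowed to differ, a copy was found in 5 of the 51 control and 6 of the 41 detrained member peaks, against 4.94% and 5.63% of all peaks, although member peaks were longer (median 2011 bp against 1568 bp for all control peaks, and 2708 bp against 1798 bp for all detrained peaks). The single half-site was common, present in 82.4% of the control member peaks and 65.4% of all control peaks.

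RefSeq promoters were matched for 9 of the 10 genes, 14 start sites in all, with Angptl4 unmatched. In the 250 bases before the start, 5 of the 14 held the half-site AGGTCA on either strand, compared with 14.02% of 32851 promoters. The Ucp3 promoter held 2, the internal Rxrg promoter 1, and the Pdk4 promoter none. These 3 are printed because their acetylation is described below, and the capitals mark the half-sites.
Ucp3, chr7:100472741-100472990, plus strand: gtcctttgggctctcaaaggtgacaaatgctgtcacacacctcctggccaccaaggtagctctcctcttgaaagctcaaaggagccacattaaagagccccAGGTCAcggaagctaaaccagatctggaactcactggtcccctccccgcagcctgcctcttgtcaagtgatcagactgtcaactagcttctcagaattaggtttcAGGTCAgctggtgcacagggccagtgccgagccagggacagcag
Rxrg internal, chr1:167618015-167618264, plus strand: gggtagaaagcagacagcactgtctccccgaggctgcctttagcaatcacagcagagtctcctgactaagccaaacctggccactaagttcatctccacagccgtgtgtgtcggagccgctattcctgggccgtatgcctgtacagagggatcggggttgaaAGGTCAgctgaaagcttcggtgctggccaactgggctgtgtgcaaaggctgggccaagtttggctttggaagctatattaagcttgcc
Pdk4, chr6:5496279-5496528, minus strand: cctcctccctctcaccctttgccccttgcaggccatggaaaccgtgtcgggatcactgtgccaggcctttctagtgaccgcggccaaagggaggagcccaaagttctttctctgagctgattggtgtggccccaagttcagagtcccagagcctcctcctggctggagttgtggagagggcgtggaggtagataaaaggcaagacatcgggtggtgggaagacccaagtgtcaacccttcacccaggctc

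For 12 of these 14 promoters the printed length of upstream sequence overlapped a peak in both groups. The other 2 were in no peak of either group. One was the downstream Pparg start (upstream sequence chr6:115421816-115422065), the promoter of the longer isoform that is known from adipocytes. The other was an internal Rxra start (chr2:27709042-27709291) whose upstream sequence held 2 half-sites.

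Levels differed widely among the 10 genes. Rxra had by far the largest acetylated domain, with 18 control peaks covering 57.6 kb and 17 detrained peaks covering 55.0 kb, and ranked 109 of 14784 genes by summed tags in control and 117 of 14382 in detrained muscle. Ucp3 ranked 912 and 841, and Ppard 1172 and 1151. Angptl4, with a single peak in each group, was the lowest of the members in detrained muscle at rank 9400. Ucp2, also with 1 peak, was the lowest in control muscle at rank 7704, next to Angptl4 at 7575. Called length enters these sums, and Rxra had the most called peaks and the most called bases of the 10 genes in both groups.

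**Figure D1:**
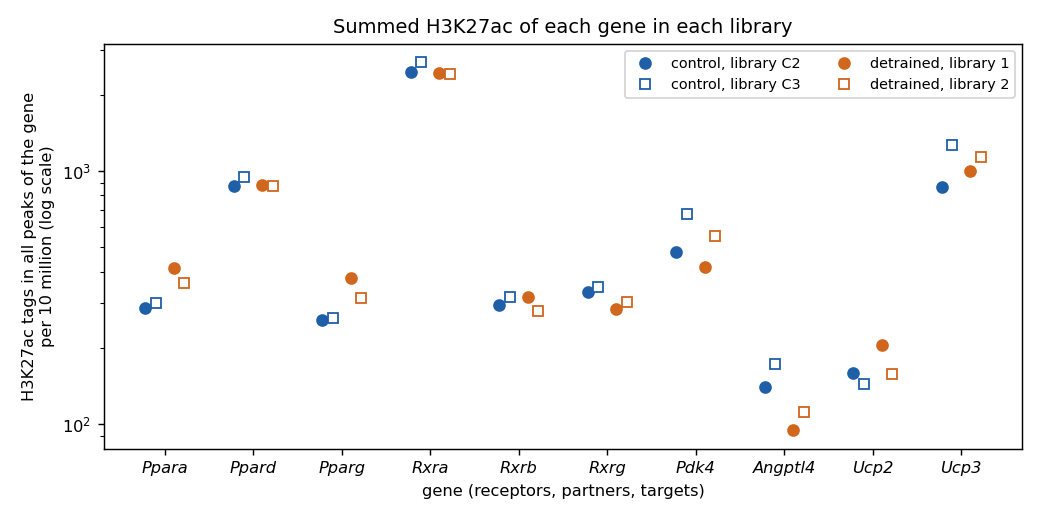
Summed H3K27ac tags, scaled to libraries of 10000000 tags, over all peaks of each gene (vertical axis, log scale), with 1 point per library: control in blue, detrained in orange. Rxra lies at 2415 or above in every library and Angptl4 between 94.6 and 173, and at Ucp3 and Pdk4 the libraries of the control group are farther apart than the means of the 2 groups.

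The sums of a gene follow how much was called as peak, so the covered length and the mean density are given beside them. For Ppara the summed tags were 288 and 302 in the control libraries and 415 and 363 in the detrained libraries, a 1.32-fold difference (0.40 on the log2 scale, pooled SD 0.10), and the groups did not overlap. The covered length was 7.63 kb in control and 8.24 kb in detrained muscle, and the Ppara mean density of 37.7 and 39.5 against 50.4 and 44.0 tags per kb gave a log2 ratio of 0.29. In the stricter peak lists (at least 4-fold over input, adjusted p under 0.001) the Ppara log2 ratio of sums was 0.86. There the upstream control peak of 55 pooled tags dropped out while its detrained counterpart of 82.7 stayed. The value of 0.86 thus follows which peaks passed and does not measure the size of a difference. Pparg had sums of 258 and 264 in control against 377 and 314 in detrained muscle (1.32-fold, 0.40 on the log2 scale, pooled SD 0.13). Its covered length was 10.35 kb in control and 10.29 kb in detrained muscle, and its mean density of 24.9 and 25.5 against 36.6 and 30.5 tags per kb gave a log2 ratio of 0.41. The log2 ratio of the Pparg sums was 0.66 over peaks within 50 kb of the start site, 1.01 when peaks under 30 pooled tags were left out and 2.07 in the stricter lists. Peaks were filtered in each list separately. Control peaks of 28.7 and 19.7 pooled tags fell under 30, while their detrained counterparts of 76.9 and 61.2 stayed. The stricter lists likewise lost control peaks whose detrained counterparts stayed. The ratios of 1.01 and 2.07 thus follow which peaks passed and do not measure the size of a difference. At Ppard, which is the most abundant PPAR of muscle fibres, the sums were 875 and 942 in control and 880 and 872 in detrained muscle, and the groups overlapped, over 18.7 kb and 16.6 kb of called peak. The Ppard mean density was 46.8 and 50.4 against 53.0 and 52.5 tags per kb, without overlap (log2 ratio 0.12).

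For Rxra the sums were 2456 and 2681 in control and 2440 and 2415 in detrained muscle, a log2 difference of -0.08 with a pooled SD of 0.06. Rxrb had 296 and 318 against 319 and 280, with overlapping groups. Rxrg, the RXR form restricted largely to muscle and brain, had 333 and 348 against 285 and 305, a log2 difference of -0.21 with a pooled SD of 0.06. The sums of Rxra and Rxrg did not overlap between groups, both being lower in detrained muscle. For Rxra the groups overlapped when tags were scaled to those in listed peaks, when ratios were centred on the median of all shared peaks, in the stricter peak lists and in mean density (42.6 and 46.5 against 44.4 and 43.9 tags per kb). For Rxrg they overlapped in the stricter lists and when weak peaks were left out (log2 ratio -0.07 in each), and did not in mean density (-0.23).

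Among the targets, Angptl4 had sums of 140 and 173 in control and 94.6 and 111 in detrained muscle, and it did not overlap between groups. That 1.52-fold lower sum accompanied a shorter called peak, as given below, and the density was equal. At Pdk4 the sums were 478 and 673 in control and 416 and 552 in detrained muscle. At Ucp3 they were 864 and 1264 against 998 and 1133. Both genes overlapped between groups, with 1.41-fold and 1.46-fold between the control libraries themselves. Ucp2 had 160 and 144 against 206 and 159, where detrained library 2 fell between the control libraries.

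**Figure D2:**
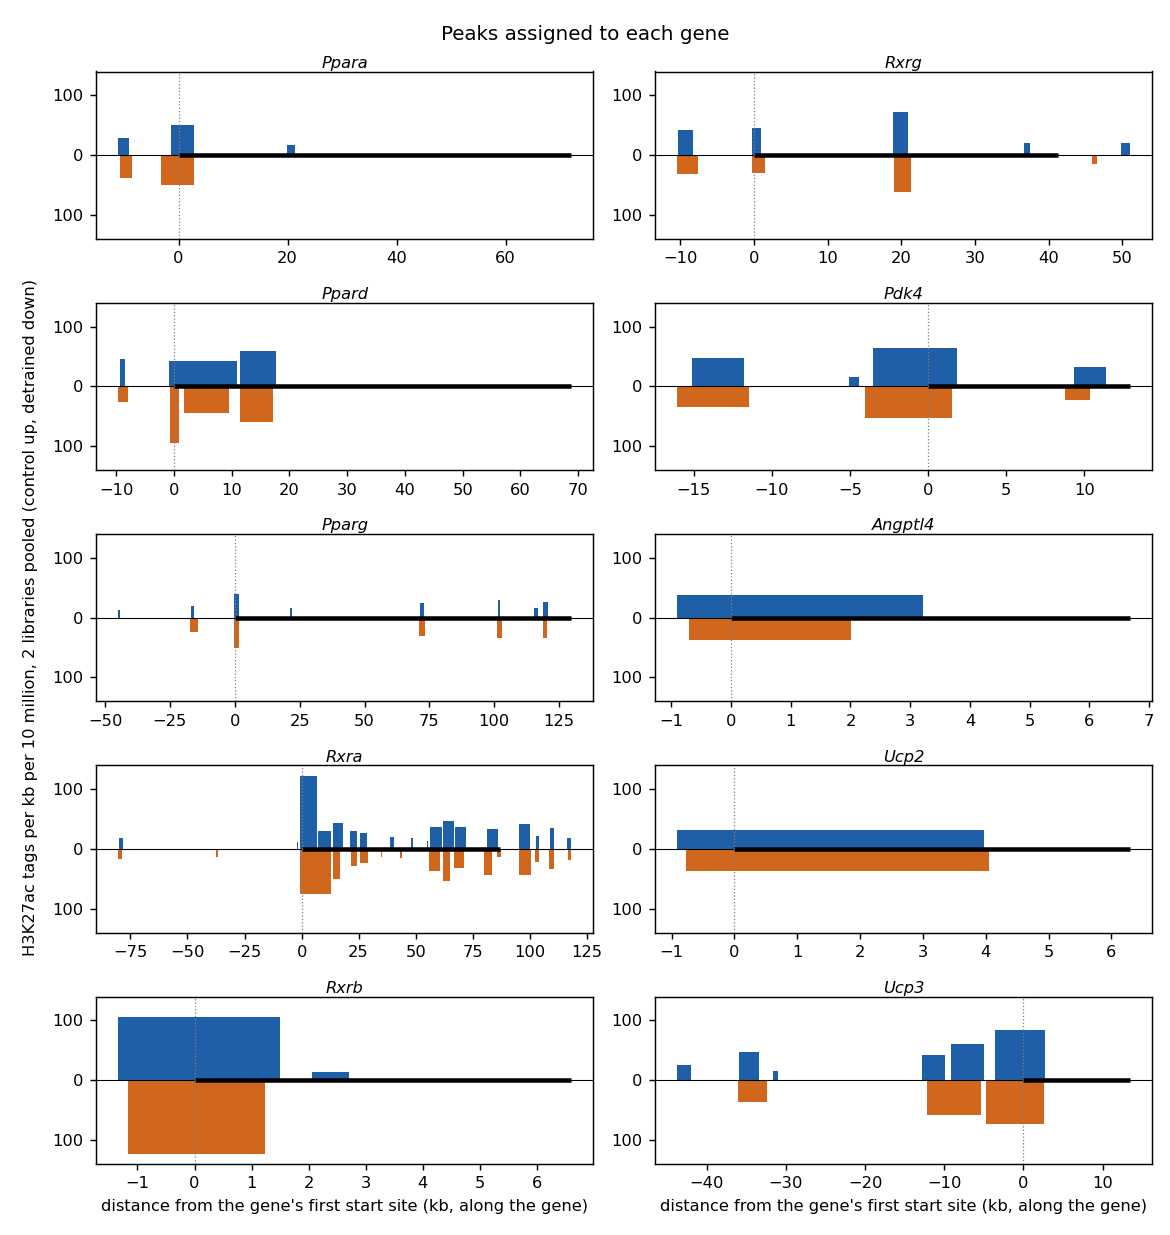
Peaks assigned to each gene by distance from its first start site in kb (horizontal axis, along the gene, gene body as a black bar). Height is scaled tags per kb with the 2 libraries of a group pooled, control upwards in blue and detrained downwards in orange. The 7.13 kb control peak over the Rxra start site faces a detrained peak of 13.4 kb, and the 11.8 kb control peak over the Ppard start site faces 2 detrained peaks.

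The position of the peaks was alike in both groups. Of the control peaks, 28 lay in introns, 13 between genes and 6 were annotated as promoters. In detrained muscle these numbers were 21, 13 and 3, since a promoter was named only when the centre of the peak fell into the promoter window. Assignment went to the nearest start site, so 6 control and 3 detrained peaks counted here lay in the body of another gene. All of the Ucp3 peaks upstream of its promoter lay within C2cd3, and the Ppard peak 8.87 kb upstream lay within Def6. Whether these peaks act on the named gene was not tested.

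Most member peaks had a counterpart in the other list. A detrained peak overlapped 37 of the 51 control peaks (72.5%, against 72.1% of all control peaks), and a control peak overlapped 37 of the 41 detrained peaks (90.2%, against 82.0%). The 14 control peaks without a counterpart were weak, with 5.66 to 42.1 scaled tags over both libraries, compared with a median of 65.6 for all control member peaks. They belonged to Rxra (4), Pparg (3), Rxrg (2), Ucp3 (2), Pdk4, Ppara and Rxrb. The 4 unmatched detrained peaks, of Rxra (3) and Rxrg, held 8.57 to 14.8 tags. No unmatched peak was over a first start site.

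Where exactly 1 peak of each list covered 50% or more of the other, the peaks were called shared, and 30 peaks of the 10 genes were so, of 26432 over the whole lists. In tags per kb, 7 of the 30 were higher in both detrained libraries than in both control libraries, where 21.3% of all shared peaks were. Another 5 were lower without overlap, where 27.2% of all shared peaks were. These shares, 23.3% and 16.7%, were near the background or below it. The median log2 ratio of the 30 was -0.02 and that of all shared peaks -0.03. No shared member peak was at least 1.5-fold higher without overlap (1.1% of all shared peaks) and 2 were at least 1.5-fold lower (2.06% of all). The count of 12 (40%, against 48.5% of all) changed with the libraries that were used. It was 26 without control library C2 (9 higher, 17 lower), which is 86.7% of the members against 76.0% of all shared peaks, and 25 without C3 (17 higher, 8 lower), or 83.3% against 75.7%. Without detrained library 2 it was 19 (63.3%, against 73.1% of all), and without library 1 it was 14 (46.7%, against 72.2%). After the input was subtracted, 6 were higher and 7 lower (43.3%, against 43.8% of all). Of all shared peaks, 17.6% were higher and 26.3% lower in that setting.

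Called length moved many of these values. Of the 30 shared peaks, 15 had a log2 ratio of the opposite sign when tags per peak were compared instead of tags per kb (50%, against 48.4% of all shared peaks). Overlapping peaks of both lists were also joined into 53 separate regions, 35 of them present in both groups. Joining sets split peaks side by side but does not equalise the called length, since the tags of each group are still summed over its own called bases. In tags per region, 11 of the 35 were higher in both detrained libraries (31.4%, against 28.2% of all joined regions), and 8 were lower (22.9%, against 29.5%). Only 3 were higher without overlap on both scales, tags per region and tags per kb (8.57%, against 6.95% of all), and 2 were lower on both (5.71%, against 9.55%). The 3 that were higher belonged to Ppara and Pparg, and the 2 that were lower to Rxrg and Pdk4. In 3 regions the scales gave opposite calls.

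**Figure D3:**
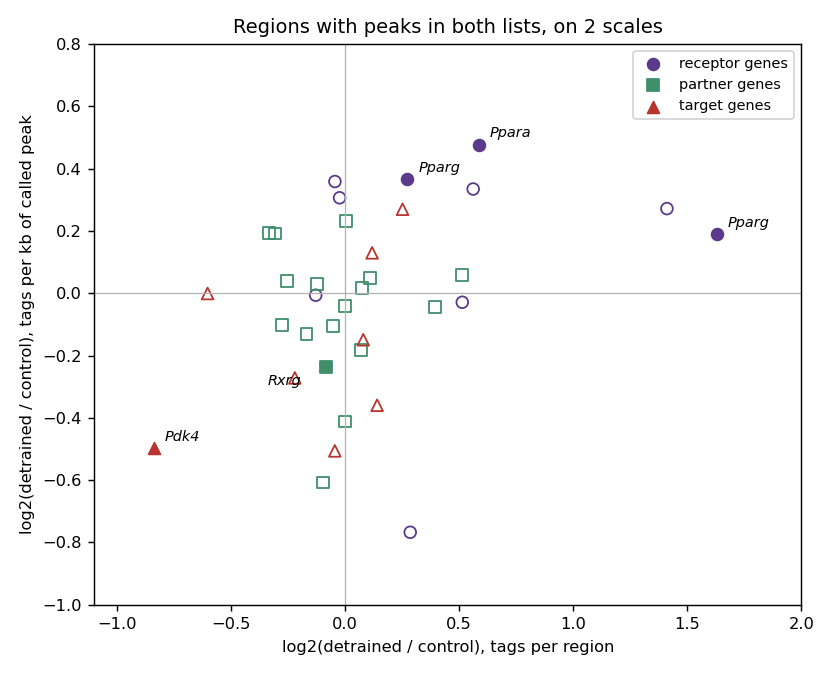
Log2 ratio of detrained to control for the 35 regions present in both groups, in tags per region (horizontal) and in tags per kb of called peak (vertical). Filled symbols are the 5 regions whose groups did not overlap on both scales, and the 3 filled receptor symbols lie in the upper right while Rxrg and Pdk4 lie in the lower left.

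Of the Ppara regions, the one 10.7 kb upstream of the start site (control peak at chr15:85723892-85725857, mm10, intergenic) was higher in detrained muscle. It held 27.4 and 28.8 tags per kb in the control libraries and 40.4 and 37.9 in the detrained libraries. The groups did not overlap, and the log2 ratio of 0.48 (pooled SD 0.06) was at percentile 97.2 of all shared peaks and the highest of the members. In tags per region the values were 53.7 and 56.3 against 85.4 and 80.2. Over the start site itself the density was 49.9 and 52.0 in control and 53.9 and 46.2 in detrained muscle, with overlapping groups. That peak was also the densest Ppara peak in both groups. It was longer in the detrained list, 6.12 kb against 4.20 kb, so that its tags per region rose from 209 and 218 to 330 and 282 while its density did not.

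At Pparg the promoter peak (control peak at chr6:115360610-115362656) held 38.2 and 42.1 tags per kb in control and 54.0 and 49.6 in detrained muscle, a log2 ratio of 0.37 (pooled SD 0.09), without overlap and at percentile 93.5 of all shared peaks. Its tags per region were 77.9 and 86.0 against 103 and 94.8. This was the densest Pparg peak in both groups. A second Pparg region, in the intron that holds the element printed above, had 21.2 and 18.2 tags in a control peak of 650 bp and 64.4 and 58.2 in a detrained peak of 1766 bp. Its density was 33.0 and 28.3 against 36.6 and 33.1 tags per kb, a log2 ratio of 0.19, where the tags per region gave 1.63. The region 16.3 kb upstream of the first start held 26.97 and 30.5 tags in control and 87.5 and 67.1 in detrained muscle, over 1.48 kb and 3.27 kb of called peak, and its density overlapped between groups (log2 ratio 0.27). In the last shared Pparg peak, 58.6 kb from the nearest start site, the density was 31.2 and 21.9 in control and 34.5 and 32.6 in detrained muscle, whereas the tags per region overlapped between groups. The fifth region, 72.2 kb downstream of the first start, held 37.6 and 48.2 tags in control and 76.8 and 51.5 in detrained muscle, and its density overlapped between groups (21.7 and 27.8 against 37.8 and 25.4 tags per kb, log2 ratio 0.33). Of the 5 Pparg regions present in both groups, the density was thus higher without overlap in 3 and overlapped in 2, and 4 of 5 held more tags without overlap. Detrained library 1 was above library 2 at each of the 5 detrained Pparg peaks, where library 2 was the higher at 40.9% of all detrained peaks.

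PPARγ is expressed by several non-muscle cells, so their markers are given beside it. Summed over its peaks, the endothelial list held 3461 and 4255 tags in control and 4681 and 3551 in detrained muscle, and all 7 of its genes had peaks in both groups. The macrophage list held 881 and 785 against 1011 and 915, with peaks at 5 of 7 genes in control and 6 of 7 in detrained muscle. The adipocyte list held 387 and 599 against 598 and 444. The fibroblast list held 2655 and 2546 against 3217 and 3219, and the satellite cell list 179 and 174 against 228 and 247. Macrophage, fibroblast and satellite cell sums were thus higher in both detrained libraries. These sums too follow the called length, and median log2 ratios of the shared peaks, in tags per kb, were -0.10 in the macrophage list (4 peaks), -0.05 in the satellite cell list (4 peaks) and 0.14 in the fibroblast list (12 peaks). Their part in the Pparg values was not tested.

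The region at the Ppard start site was divided differently in the lists. Control muscle had 1 peak of 11.8 kb from the start site into the gene, at 42.04 and 44.7 tags per kb. Detrained muscle had a peak of 1.63 kb over the start site, at 99.3 and 92.4, and a second of 7.73 kb at 45.2 and 44.3. Joined, the region held 495 and 526 tags in control and 511 and 493 in detrained muscle, and the groups overlapped. Per kb of called peak, over 11.8 kb and 9.36 kb, the detrained libraries of that region were higher without overlap (log2 ratio 0.31). The next intron peak, which holds the element printed above, had 55.6 and 62.7 tags per kb in control, the densest Ppard peak there, and 57.9 and 59.7 in detrained muscle. Its tags per region were 342 and 386 against 327 and 337, lower without overlap. The region within Def6 held 38.4 and 30.7 tags against 41.8 and 42.01, higher without overlap, and was lower per kb (log2 ratio -0.77), with a control peak of 761 bp and a detrained peak of 1579 bp. The control density over the span of the short detrained peak was not measured.

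**Figure D4:**
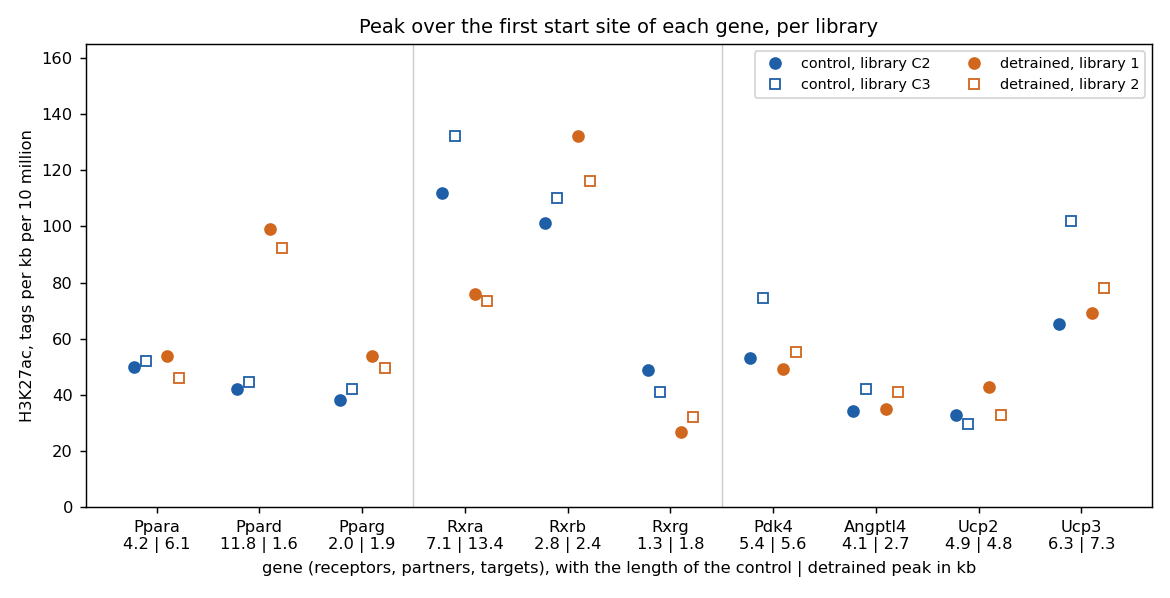
H3K27ac in scaled tags per kb for the peak over the first start site of each gene, with 1 point per library (control blue, detrained orange) and the peak lengths in kb under each name. Pparg and Rxrb lie higher and Rxrg lower in both detrained libraries, Ucp3 spans 65.2 to 102 in control, and the Ppard and Rxra values come from peaks of very different length.

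Among the RXRs, Rxrb had the densest member peak of the detrained list. Its promoter peak held 101 and 110 tags per kb in control and 132 and 116 in detrained muscle, at percentiles 97.9 and 99.1 of all peaks, and did not overlap between groups (log2 ratio 0.23, pooled SD 0.11). The tags per region overlapped, at 286 and 311 against 319 and 280, since the detrained peak was shorter (2.41 kb against 2.83 kb).

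In tags per region, the start site region of Rxra was the highest of the member regions in every library. A control peak of 7.13 kb held 112 and 132 tags per kb, the highest control density of the members, and a second one of 5.84 kb held 30.2 and 29.8. In detrained muscle 1 peak of 13.4 kb spanned both, at 76.0 and 73.6 tags per kb. The log2 ratio of -0.70 for the pair of start site peaks, the largest decrease of the shared member peaks, thus compares different spans. Joined, the region held 975 and 1116 tags in control and 1022 and 989 in detrained muscle, with overlapping groups. Of the other Rxra regions, the one with the exact receptor element had 44.3 and 40.1 tags per kb in control and 43.3 and 43.9 in detrained muscle, also with overlap. By the naming rule used for promoter peaks, the detrained Rxra peak nearest to any start site was a weak one of 637 bp beside an internal start, at 12.4 and 15.8 tags per kb, without a control counterpart.

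Without the start site pair, the 11 other shared Rxra peaks had log2 ratios in tags per kb from -0.18 to 0.19 (median 0.03). Of these, 2 were higher and 1 lower without overlap, and the sign differed between tags per kb and tags per peak in 7. The peaks 15.3 kb and 30.2 kb from the nearest start site were higher per kb (43.4 and 44.1 against 52.2 and 47.9, and 45.4 and 49.8 against 53.9 and 54.7) but held fewer tags per region, where the groups did not overlap in the other direction.

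Rxrg was lower per kb at each of its 3 shared peaks. Its internal promoter, printed above, was the densest Rxrg region (control peak at chr1:167617164-167619307), with 70.2 and 73.9 tags per kb in control and 60.5 and 61.7 in detrained muscle (log2 ratio -0.24, pooled SD 0.04). Its tags per region were lower as well, at 150 and 158 against 144 and 147. The peak over the first start site held 49.0 and 40.9 tags per kb against 26.98 and 32.1 (log2 ratio -0.61, pooled SD 0.18), and the upstream peak at 9.26 kb held 35.8 and 47.3 against 29.0 and 33.0 (-0.41, pooled SD 0.22). The tags per region of these last peaks overlapped between groups, because the detrained peaks were longer (1.83 kb against 1.28 kb, and 2.74 kb against 2.06 kb). Thus the internal promoter was the only Rxrg region that was lower on both scales.

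Among the targets, the promoter peaks of Ucp3 and Pdk4 differed more between the control libraries than between the group means. At the Ucp3 promoter (control peak at chr7:100469392-100475662) the density was 65.2 in control library C2 and 102 in C3, and 69.3 and 77.9 in the detrained libraries. C3 was thus 1.56-fold above C2, and both detrained libraries lay between them. The 2 control peaks 11.4 kb and 7.07 kb upstream held 37.1 and 48.4, and 50.02 and 72.7, and the detrained peak that spans both held 54.0 and 62.1. Joined, that region had 308 and 432 tags in control and 369 and 425 in detrained muscle. Still farther upstream, at 34.6 kb, the density was 37.0 and 57.0 in control and 33.6 and 38.1 in detrained muscle.

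At the Pdk4 promoter, too, C3 lay above C2 and detrained library 2 above library 1. That peak held 53.3 and 74.5 tags per kb in control and 49.4 and 55.2 in detrained muscle, a log2 ratio of -0.27 with a pooled SD of 0.25, and the groups overlapped. The peak 13.5 kb upstream held 38.1 and 56.7 in control and 24.04 and 44.5 in detrained muscle. Its log2 ratio of -0.51, the third lowest of the shared member peaks, was no larger than its pooled SD of 0.53. Detrained library 2 was 1.85-fold above library 1 there, at percentile 99.8 of that difference over all detrained peaks. One Pdk4 region was lower without overlap on both scales. It lay 10.4 kb downstream of the start in an intron near the end of the gene (control peak at chr6:5484902-5486913), with 28.0 and 37.6 tags per kb in control and 20.1 and 26.2 in detrained muscle. In tags per region it held 56.0 and 75.5 against 31.8 and 41.5. The detrained peak there covered less than 50% of the control peak, so it is not among the 30 shared peaks.

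Angptl4 had 1 peak over its start site and first introns, with 34.1 and 42.2 tags per kb in control and 34.9 and 41.2 in detrained muscle, a log2 ratio of 0.00 with a pooled SD of 0.19. The called peak was 4.11 kb long in control and 2.71 kb in detrained muscle, and the lower sum of Angptl4 goes with that length. Ucp2 lies next to Ucp3 on chromosome 7. Its peak held 32.8 and 29.5 tags per kb in control and 42.8 and 32.9 in detrained muscle, a log2 ratio of 0.27 with a pooled SD of 0.20. The groups did not overlap, but the margin between detrained library 2 and C2 was 32.9 against 32.8. Here C3 lay below C2 and detrained library 2 below library 1, opposite to Ucp3.

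Over all peaks of the 4 target genes, C3 was at least 1.2-fold above C2 at 9 of 12 control peaks, whereas this held for 21.6% of all control peaks, and C2 was at least 1.2-fold above C3 at none. The 9 were 5 Ucp3 peaks, 3 Pdk4 peaks and the Angptl4 peak. In the detrained list, library 2 was at least 1.2-fold above library 1 at 2 of 8 target peaks, both of Pdk4, against 11.6% of all detrained peaks. For the PPAR genes these numbers were 1 of 14 in control and 0 of 11 in detrained muscle, and for the RXR genes 3 of 25 and 2 of 22. In the other direction, the first library was at least 1.2-fold above the second at 3 of 14 and 2 of 11 PPAR peaks, at 6 of 25 and 2 of 22 RXR peaks, and at 1 of 8 detrained target peaks, where 14.6% of all control and 17.8% of all detrained peaks were. The threshold of 1.2-fold was chosen after the values were seen, and peaks of 1 gene share their chromatin and are not independent. Because the 2 libraries of a group were in 1 table, this comparison does not depend on how the lists were matched.

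**Figure D5:**
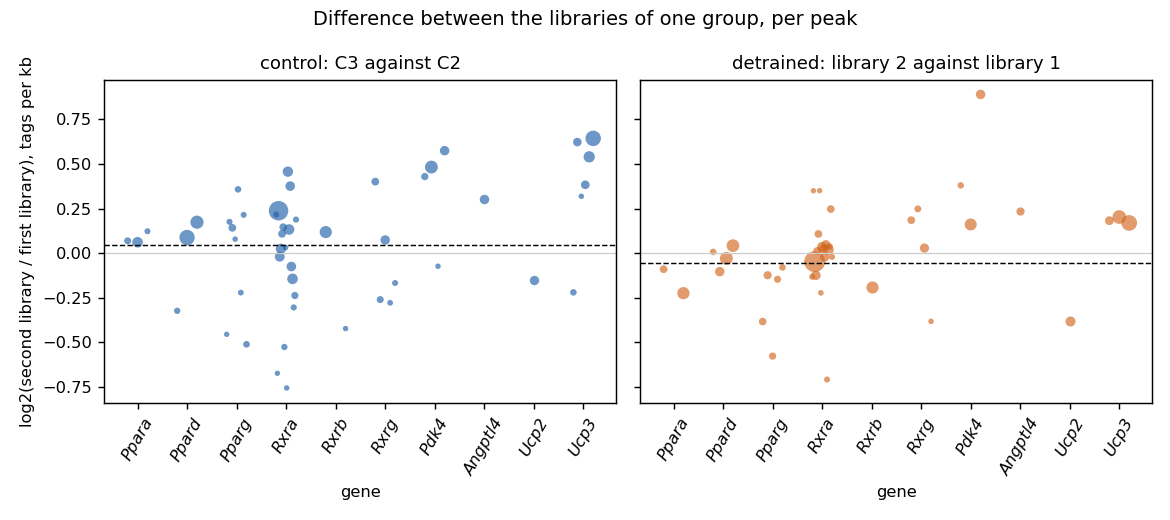
Log2 ratio of the second to the first library of a group at every peak of each gene (vertical axis; control left, detrained right; point area grows with pooled tags; dashed line, median of all peaks of that list). The larger Pdk4 and Ucp3 peaks lie above the median in both panels, and Ucp2 lies below it in both.

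The same comparison of libraries was made for the marker lists. In the muscle fibre list, C3 was at least 1.2-fold above C2 at 20 of 38 control peaks (median log2 difference 0.27), and its summed level was 7262 in C2 and 9198 in C3, compared with 9149 and 8730 in the detrained libraries. In the endothelial list the count was 21 of 45 (median 0.21), and in the adipocyte list 2 of 3. It was 6 of 34 in the fibroblast list (median -0.06), 0 of 10 in the macrophage list (median -0.19) and 1 of 5 in the satellite cell list (median -0.11). In the detrained libraries the muscle fibre median was 0.03, whereas the endothelial list ran opposite to the targets, with library 1 at least 1.2-fold above library 2 at 25 of 46 peaks (median -0.31). Both detrained adipocyte peaks were also higher in library 1 (median -0.43), while library 2 was the higher at 7 of 8 target peaks (median 0.19). Over all detrained peaks library 2 was the higher at 40.9% (median -0.05). The detrained medians of the macrophage, fibroblast and satellite cell lists were -0.15, -0.07 and 0.00. The part of cell composition in the spread of Pdk4 and Ucp3 was not tested, and differences between animals and between chromatin preparations cannot be told apart.

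The wider PPAR pathway was described by lists chosen for their known function. Of 35 genes of fatty acid use, 33 had a control peak and 31 a detrained peak, with none at Acot1 or Fgf21. Among their 63 shared peaks, 16 were higher (25.4%) and 9 lower (14.3%) without overlap, where 21.3% and 27.2% of all shared peaks were, and the median log2 ratio was 0.05. Of the shared promoter peaks, the highest was Slc25a20, the carnitine-acylcarnitine carrier, with 30.2 and 37.9 tags per kb in control and 48.3 and 47.9 in detrained muscle (log2 ratio 0.51), followed by Lpin1, a phosphatidate phosphatase, with 46.0 and 54.6 against 65.2 and 59.95 (0.32). Lowest was Acadm, the medium-chain acyl-CoA dehydrogenase, with 92.8 and 120 against 61.1 and 61.5 (-0.78), followed by Hadhb, a subunit of the trifunctional protein, with 134 and 149 against 118 and 112 (-0.30). In tags per peak, Slc25a20 was lower (log2 ratio -0.39) and Acadm and Hadhb were slightly higher (0.06 and 0.08), so only Lpin1 kept its direction (0.41). In control muscle this list leaned the same way as the targets, with C3 at least 1.2-fold above C2 at 46 of 108 peaks (42.6%, against 21.6% of all). C2 was at least 1.2-fold above C3 at 2. In detrained muscle library 2 was at least 1.2-fold above library 1 at 14 of 99 peaks and library 1 above library 2 at 13 (median log2 difference -0.03).

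Of 10 paralogs of the members, 7 had peaks in each group. Among 20 shared peaks, 4 were higher (20%) and 5 lower (25%) without overlap, against 21.3% and 27.2% of all. Log2 ratios ran from -0.62 to 0.63 with a median of -0.09, and 1 peak was at least 1.5-fold higher and 1 at least 1.5-fold lower without overlap. Their 5 shared promoter peaks had log2 ratios from -0.27 at Slc25a30 and -0.09 at Pdk1 to -0.08 at Angptl2 and -0.04 at Angptl6. C3 was at least 1.2-fold above C2 at 6 of 31 control peaks of these genes. At the promoter of Pdk1, another pyruvate dehydrogenase kinase, the density was 54.0 and 44.9 in control and 47.8 and 44.7 in detrained muscle, so C3 lay below C2.

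Coregulators and partner receptors had peaks at 21 of 22 genes in control and 20 in detrained muscle, with none at Vdr. Of their 66 shared peaks, 13 were higher (19.7%) and 18 lower (27.3%) without overlap, again beside 21.3% and 27.2% of all, with a median log2 ratio of -0.04. Among the shared promoter peaks, Esrrb, an estrogen-related receptor, was highest with 23.4 and 27.6 tags per kb in control and 35.5 and 33.8 in detrained muscle (log2 ratio 0.45, and 1.26 in tags per peak). Crebbp, a histone acetyltransferase that writes H3K27ac, was lowest with 123 and 130 against 81.2 and 66.9 (-0.78), and Esrra, an estrogen-related receptor of oxidative metabolism, had 101 and 110 against 75.2 and 68.4 (-0.55). In tags per peak these last genes were almost equal between groups (0.01 and 0.09), since their detrained peaks were longer.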

How the data were processed

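The deposited peak lists, 1 per group, were read as given, in mm10 coordinates. Per the labels and the methods, the authors aligned reads with Bowtie (1.2 in the labels) and called H3K27ac peaks over input with HOMER, keeping those at least 2-fold enriched. The labels gave C57BL/6 for the H3K27ac libraries and other strain numbers for the inputs. The pooled tag signal (scaled to 10000000 tags) and the log2 (rlog) values of input and both libraries are the authors' values. Deposited log2 fold changes and adjusted p-values over input were used only to filter peaks in 1 alternative. No deposited column was left without a group, and control columns C2 and C3 could not be tied to numbered samples, only to their group.

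Pooled tags were shared between the libraries in proportion to 2 to the power of the rlog value times the library total, which shrinks differences at weak peaks. Density is tags plus a pseudocount of 0.5, per kb and per 10000000 library tags, on the log2 scale. Peaks were shared where a single pair covered 50% or more of both, or overlapping peaks were joined. Means, SDs and counts were computed in Python 3.11.15 with numpy 2.4.6, pandas 2.3.3 and scipy 1.17.1, with figures in matplotlib 3.10.9, and the script was tested on simulated data. The members, lists and rules were chosen with earlier results of these data known. By rule, all members were named, with their promoter peak, densest peak and the 3 largest increases and decreases, and pathway genes only as the 2 highest and 2 lowest promoter ratios per list, except for results that are not reported here. Alternatives changed the length scaling, pairing, normalization, pseudocount, input, peak filter and libraries used; joined regions, the 1-letter motif and the 1.2-fold rule were added after the data were seen.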

Additional observations from a re-analysis of the deposited data

How the results depend on the processing

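The number of shared member peaks without overlap between groups was 12 of 30. It was 5 of 14 when 80% of each peak had to be covered (35.7%, against 40.2% of all). Over joined regions, an alternative chosen after seeing the data, it was 19 of 35 (31.4% higher and 22.9% lower, against 28.2% and 29.5% of all). With 1 library left out it ran from 14 to 26, where 72.2% to 76.0% of all shared peaks did not overlap, against 48.5% with every library, since fewer values per group separate more easily by construction. The other 8 alternatives gave from 10 of 23 in the stricter lists (43.5%, against 50.4% of all) to 17 of 30 in tags per peak (56.7%, against 53.4%). Member shares ran from 40% to 56.7% in these, and shares of all shared peaks from 43.8% to 53.4%. The median log2 ratio of member shared peaks stayed between -0.09 and 0.07 under every alternative run. Of the control member peaks, 96.4% of 28 were overlapped in the stricter lists (at least 4-fold over input, adjusted p under 0.001), against 72.5% of 51, while the share of all control peaks was 88.7% against 72.1%. Of the detrained member peaks, 73.2% were overlapped when 50% of each peak had to be covered, against 90.2%, and of all detrained peaks 64.9% against 82.0%. For sums over genes, the log2 ratio kept its sign under all 12 alternatives at Ppara (0.29 to 0.86), Pparg (0.27 to 2.07), Rxra (-0.14 to -0.01), Rxrg (-0.25 to -0.07), Ucp2 (0.06 to 0.44) and Angptl4 (-0.77 to 0.00), and not at Ppard, Rxrb, Pdk4 or Ucp3. The highest values at Ppara and Pparg came from the stricter lists, where control peaks dropped out while their detrained counterparts stayed. That filter pushes both ratios upwards, so these values do not bear on the sign. The Pdk4 sign turned only without control library C3 (0.0036), and that of Ucp3 without C2 (-0.25) and without detrained library 2 (-0.07). Ppard turned in the stricter lists, in mean density (0.12) and without C3. Rxrb turned with tags scaled to those in listed peaks, with weak peaks left out, in the stricter lists, in mean density (0.49), without C3 and without detrained library 2. Depth limits the weak peaks, which held as few as 9.36 estimated tags in a library, and 2 libraries per group limit every comparison. No paired analysis was made, because the groups held different animals and no label pairs a control with a detrained library.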
